A study of Oryza sativa with 30 samples.

Results

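The shoot apex of the rice cultivar Nipponbare (NB) after 8 short days was represented by 3 RNA sequencing libraries. They were chosen by the cultivar and day in the labels and compared with the 3 NB libraries of day 0, so that 6 of the 23 count libraries of the series entered the comparison itself. NB is a temperate japonica cultivar, and the labels name no mutation, transgene or further treatment in either group. Plants were 6 weeks old when they were moved from 16 h light and 8 h dark to 10 h light and 14 h dark, with 28 °C in the light and 24 °C in the dark. Day 0 plants had seen long days only. The groups hold no plants kept in long days for 8 more days, so plant age and day length cannot be told apart. Apices were cut out under a microscope, and the labels do not give how many plants went into a library or at which hour they were taken. The other libraries, of NB days 4 and 12 and of the cultivar Taichung 65 (T65), entered the model to estimate the spread and are used below for context.

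Rice flowers earlier in short days. Leaves then make florigen, the protein Hd3a, which moves to the shoot apex and forms a complex with 14-3-3 proteins and the bZIP factor OsFD1, and this complex switches on MADS-box genes of the APETALA1 and FRUITFULL group such as OsMADS14 and OsMADS15. The apical meristem then stops making leaves and forms the panicle, and the stem below it begins to elongate, a step that the zinc-finger factor PINE1 restrains. Related proteins of the TERMINAL FLOWER 1 type (RCN1 to RCN4) compete with florigen for the same partners and delay the switch.

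The 6 libraries held 11.9 to 22.7 M counts in genes (M is 1e+06), with the day 8 libraries at 11.9, 18.8 and 15.3 M and the day 0 libraries at 22.7, 22.3 and 20.9 M. Values are CPM, counts per 1e+06 of a library size scaled by TMM, and each fold change is a log2 value, day 8 over day 0, with its standard error (SE). The number of reads aligned to several places came to 9.7 to 10.6% of the gene counts in 5 of the libraries and to 6.71% in day 8 replicate 3, so calls against day 0 that were lost without that library are named below. Meristem identity of the tissue was checked with 5 markers. OSH1, OSH15, OSH71, FON1 and LOG were detected in all 6 libraries, and their summed level was 307 to 397 CPM on day 0 and 271 to 350 CPM on day 8. The 3 vascular and secondary wall markers summed to 42.7 to 53.9 CPM on day 0 and 45.5 to 49.1 CPM on day 8. Of 8 green leaf markers, 7 are in the files and none was at 0, and their sum was 40.1 to 42.8 CPM on day 0 and 94 to 142 CPM on day 8. The 10 markers of heat and wounding summed to 706 to 747 CPM on day 0 and 711 to 1003 CPM on day 8. The part of leaf material and of handling in the differences below was not tested.

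In all, 289 genes were higher and 216 lower on day 8 than on day 0, together 505 of 22839 tested or 2.21% (1.27% higher, 0.946% lower). The test was edgeR's quasi-likelihood F test with a threshold of 0.05 on the Benjamini-Hochberg adjusted p. For the gene lists below, counts at an unadjusted p under 0.05 are given without the share of all genes tested at that p. Those counts therefore cannot be read as above or below that share. Most changes were modest: 80 genes rose and 81 fell by at least 1 on the log2 scale, and 6 rose and 4 fell by at least 4. The median change was 0.70 among genes that rose and -0.82 among those that fell. The 3 day 8 libraries lay above all 3 day 0 libraries for 286 of the genes that rose and below them for 212 of those that fell. Over all genes tested, 12.5% had day 8 above and 12.6% had day 8 below in this way.

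The total depended on single libraries. With day 0 replicate 1 left out it was 178, and with day 0 replicate 3 left out 242. Leaving out day 8 replicate 1 gave 290 and leaving out day 8 replicate 3 gave 167. It was 97 in the fit that left out all 7 libraries of the lower share of multiply aligned reads (58 higher and 39 lower). Without day 0 replicate 2 it was 403, and the larger side changed, with 161 higher and 242 lower.

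**Figure D1:**
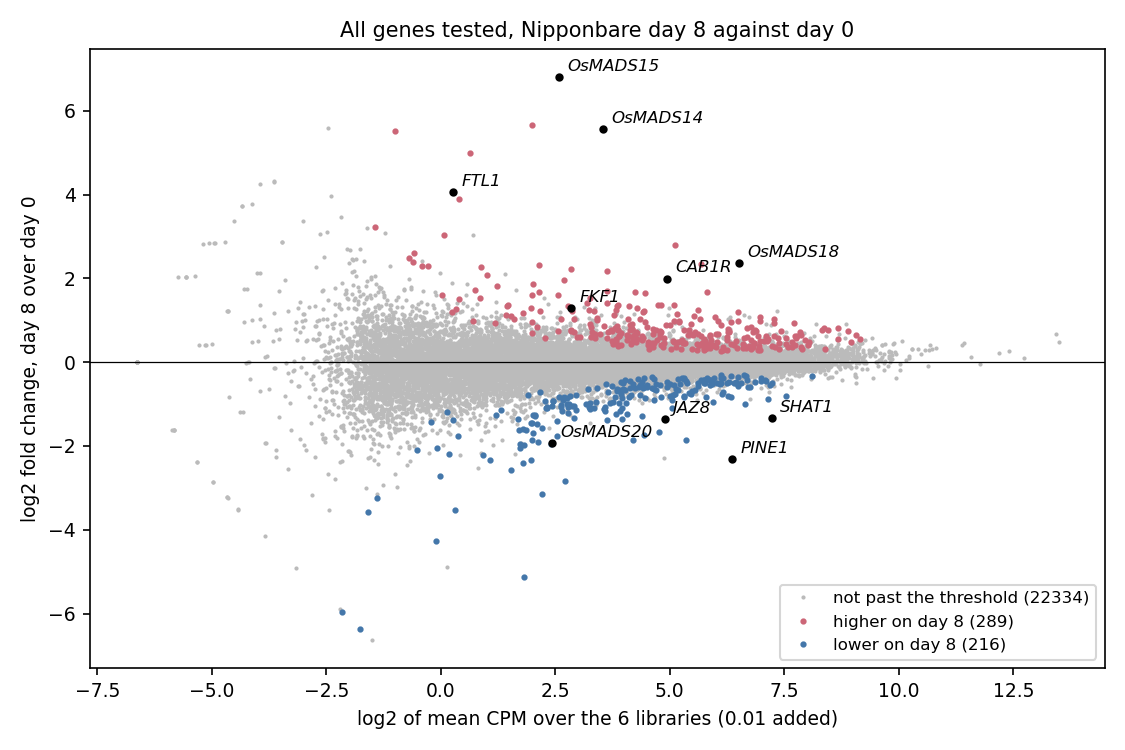
Each point is 1 of the 22839 genes tested, with the log2 of its mean CPM over the 6 libraries (0.01 added) on the x axis and its log2 fold change, day 8 over day 0, on the y axis. The 289 genes that were higher and 216 that were lower are coloured, and OsMADS15 (6.80), OsMADS14 (5.56) and FTL1 (4.05) are among the 6 that rose by at least 4.

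Genes that give the apex its inflorescence identity held the largest rise of any gene tested, that of OsMADS15. OsMADS14, OsMADS15 and OsMADS18 rose while their relative OsMADS20 fell, so that 4 of the 5 members tested passed, with a median of 2.36 beside -0.0075 over all genes. The same 3 and 1 passed in the fit without the libraries of the lower share. This list was chosen with results of these libraries known and may rest on earlier work with them, so its direction is not independent evidence. In a whole apex, fewer cells of a type and less RNA per cell cannot be told apart.

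OsMADS14 (LOC_Os03g54160), an APETALA1-like activator of panicle development, stood at 0.42, 0.485 and 0.546 CPM in the day 0 libraries and at 18.3, 30.7 and 19.5 CPM in the day 8 libraries. Day 0 rested on 10 to 12 counts a library and day 8 on 216 to 590, the groups are far apart, and the log2 fold change was 5.56 ± 0.34 (edgeR adjusted p = 4.69e-09). Its paralog OsMADS15 (LOC_Os07g01820) was at 0.042, 0.132 and 0.137 CPM on day 0, or 7 counts in all, and at 4.75, 19.2 and 11.5 CPM on day 8, or 597 counts. The lowest day 8 library, replicate 1, and the highest, replicate 2, differed more for this gene than for OsMADS14 or OsMADS18, yet both were far above every day 0 library (6.80 ± 0.60, edgeR adjusted p = 9.83e-07). OsMADS18 (LOC_Os07g41370), already well expressed in the vegetative apex, was at 28.1, 24.8 and 36.3 CPM on day 0 and 133, 164 and 161 CPM on day 8 (2.36 ± 0.18, edgeR adjusted p = 8.64e-08). The spread among its day 8 libraries was small beside the difference between the days.

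OsMADS20 (LOC_Os12g31748), a further member of the same FRUITFULL-like branch, moved the other way. It had 9.16, 9.25 and 7.1 CPM on day 0 and 2.12, 1.51 and 3.13 CPM on day 8 (-1.93 ± 0.25, edgeR adjusted p = 0.000128). Each day 8 library was below each day 0 library, and the call held without any 1 library. OsMADS34 (LOC_Os03g54170), a SEPALLATA-like gene that acts with OsMADS14, OsMADS15 and OsMADS18 in the inflorescence meristem, was close to the limit of detection on both days, with 0.084, 0.0441 and 0.137 CPM and 0.424, 0.469 and 0.133 CPM. These are 6 and 16 counts, the groups overlap, and the difference did not pass (1.90 ± 0.85, edgeR adjusted p = 0.271).

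PINE1 (LOC_Os12g42250), which holds back internode elongation until the apex turns reproductive, was at 163, 111 and 138 CPM on day 0 and 31, 15.3 and 36.8 CPM on day 8. The day 8 library with the least PINE1 transcript, replicate 2, was also the one with the most OsMADS14 and OsMADS15. The other day 8 libraries did not follow this order: replicate 3 had more PINE1, OsMADS14 and OsMADS15 than replicate 1. The groups do not overlap, and PINE1 fell by 2.32 on the log2 scale (SE 0.25, edgeR adjusted p = 1.23e-05). ACE1 (LOC_Os03g22510), a gene that promotes internode elongation in deepwater rice, had 1.05, 0.749 and 1.5 CPM on day 0 and 0.424, 0.469 and 0.532 CPM on day 8. Day 8 lay below day 0 in every library, but at these low levels the difference did not pass (-1.19 ± 0.57, edgeR adjusted p = 0.3).

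**Figure D2:**
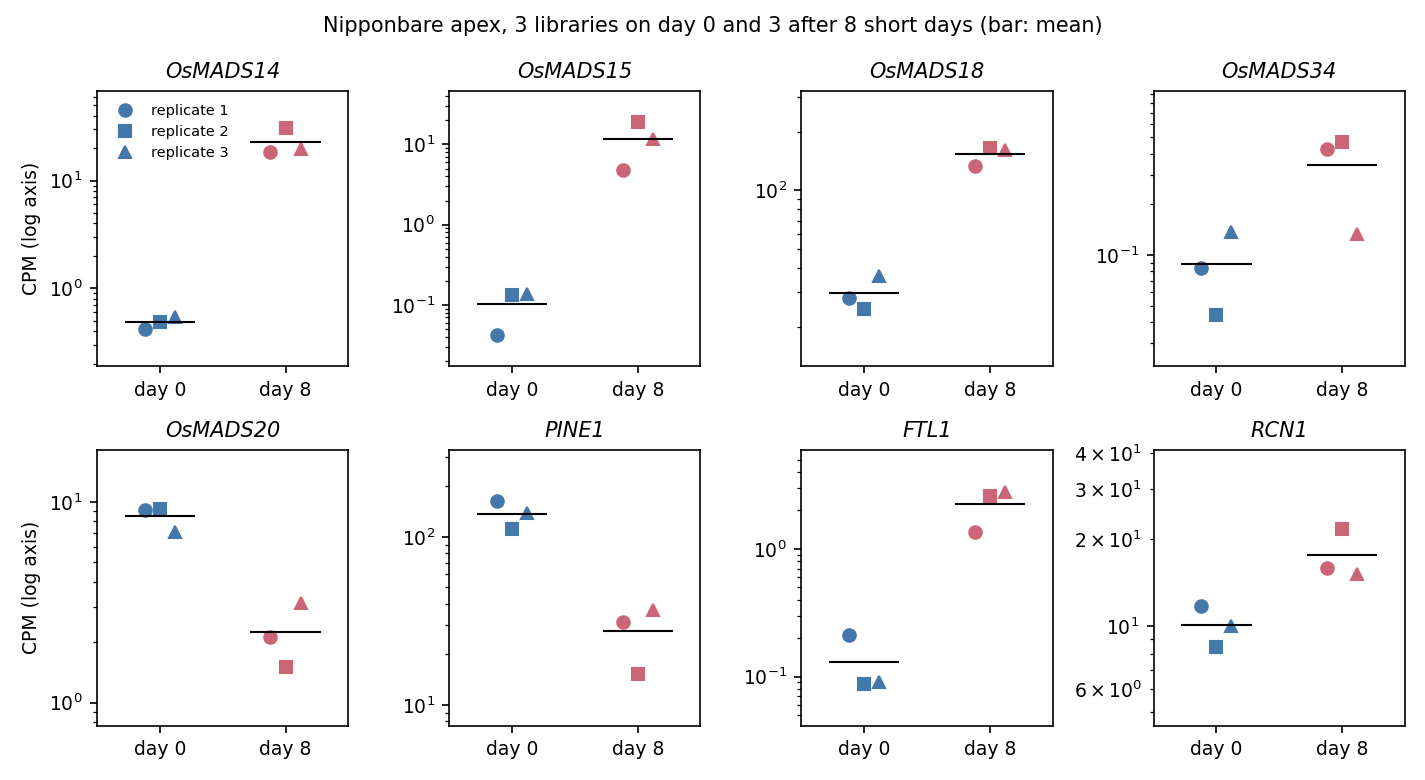
CPM (log axis, its range set for each gene) in each of the 3 day 0 and 3 day 8 libraries of Nipponbare, with the symbol shape giving the replicate and the bar the mean. The groups are apart for OsMADS14, OsMADS15, OsMADS18, FTL1 and RCN1, which were higher on day 8, and for OsMADS20 and PINE1, which were lower, and they overlap for OsMADS34.

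Within the florigen family the transcripts that changed did not include that of the mobile signal Hd3a. Hd3a (LOC_Os06g06320), which is transcribed in leaves, was not seen in any of the 6 libraries (0 counts). A level below 0.126 CPM in the deepest of them, or below 0.255 CPM in the shallowest, could have gone undetected by counting error alone. FTL1 (LOC_Os01g11940), a florigen-like gene expressed at the apex itself, was at 0.21, 0.0881 and 0.091 CPM on day 0 and 1.36, 2.61 and 2.79 CPM on day 8 (4.05 ± 0.39, edgeR adjusted p = 3.51e-06). All 3 day 8 libraries were above the highest day 0 library, which together with the other day 0 libraries held only 9 counts.

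RCN1 (LOC_Os11g05470), a TERMINAL FLOWER 1-like antagonist of florigen, rose as well, from 11.7, 8.46 and 10 CPM to 16, 21.8 and 15.2 CPM (0.81 ± 0.18, edgeR adjusted p = 0.0175). This call was lost without day 0 replicate 2 or 3 or day 8 replicate 2 (adjusted p = 0.0661 to 0.0793). The related RCN2 (LOC_Os02g32950) was higher in every day 8 library, at 0.764, 0.99 and 0.599 CPM against 0.336, 0.441 and 0.501 CPM, without passing (0.89 ± 0.45, edgeR adjusted p = 0.324). RCN4 (LOC_Os04g33570) overlapped between the days, at 0.924, 0.0441 and 0.683 CPM and 1.61, 0.573 and 0.665 CPM (0.72 ± 0.70, edgeR adjusted p = 0.628), and RCN3 (-0.19 ± 0.20) did not pass either. In all, 2 of the 5 tested genes of this family rose and none fell, with a median of 0.81.

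Among the partners of florigen, the 14-3-3 gene GF14b (LOC_Os04g38870) rose slightly, from 170.4, 157 and 176 CPM to 214, 209 and 228 CPM (0.37 ± 0.082, edgeR adjusted p = 0.0166), as 1 of 3 tested. The groups do not overlap, but the call was lost without day 0 replicate 1 or 2 or day 8 replicate 3 (adjusted p = 0.0665 to 0.104). OsFD1 (LOC_Os09g36910) was at 144, 136 and 175 CPM on day 0 and 198, 225 and 178 CPM on day 8. Its groups are apart by a narrow margin and the difference did not pass (0.40 ± 0.19, edgeR adjusted p = 0.292). GF14c (LOC_Os08g33370) was nearly level (0.032 ± 0.089), and OsFD4 was too low to be tested.

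The genes that read day length upstream of florigen showed no call. Of 9 such genes, 5 passed the filter on low counts, and by edgeR 0 passed the test (2 at an unadjusted p under 0.05, and 0 by DESeq2), with a median of -0.10. Ehd1, Ghd7 and DTH8, known from leaves, had 0 counts in all 6 libraries. The phytochrome genes PHYA (-0.26 ± 0.10), PHYB (0.014 ± 0.077) and PHYC (0.079 ± 0.09), which encode red light receptors, and SE5 (-0.29 ± 0.12), needed to make their chromophore, did not pass, nor did Hd1 (-0.10 ± 0.28).

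Of 12 clock genes, all tested, 5 rose and none fell, and the same 5 had an unadjusted p under 0.05. The list ran from -1.44 to 1.30 with a median of 0.053, and 6 of its members had a negative value. The member at -1.44 did not pass. In 1 of the 12 every day 8 library lay below every day 0 library, beside 12.6% of all genes tested. Without the libraries of the lower share 3 rose. The hour of collection is not given, and day length itself shifts the clock relative to the hour, so these changes and a shift of sampling time cannot be told apart.

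The genes that rose were FKF1, GI and 3 pseudo-response regulators. FKF1 (LOC_Os11g34460), a blue light receptor that targets proteins for degradation, was at 2.98, 4.58 and 4.83 CPM on day 0 and 12.31, 8.81 and 9.58 CPM on day 8 (1.30 ± 0.17, edgeR adjusted p = 0.000128). PRR95 (LOC_Os09g36220), a pseudo-response regulator, was at 50.7, 44.4 and 68.6 CPM and 152, 95.7 and 126 CPM (1.19 ± 0.18, edgeR adjusted p = 0.000659). Every day 8 library exceeded every day 0 library for both genes, though day 8 replicate 2 was the lowest of its group for each.

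PRR73 (LOC_Os03g17570) was at 161, 160.3 and 194 CPM and 278, 261 and 261 CPM (0.64 ± 0.081, edgeR adjusted p = 0.000113). GI (LOC_Os01g08700), which links the clock to flowering, was at 148, 167 and 205 CPM and 301, 278 and 274 CPM (0.71 ± 0.12, edgeR adjusted p = 0.00267), a call lost in the fit without the libraries of the lower share (adjusted p = 0.0777). PRR37 (LOC_Os07g49460), a heading date gene, was at 121, 132 and 143 CPM and 216, 179 and 200.2 CPM (0.59 ± 0.12, edgeR adjusted p = 0.0111). The PRR37 call was lost without day 0 replicate 1 or day 8 replicate 1 or 3 (adjusted p = 0.0528 to 0.082). The morning gene LHY (-0.18 ± 0.11) and the evening genes PRR1 (-0.13 ± 0.076) and ELF3-1 (-0.092 ± 0.10) did not pass.

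Of the SPL genes, which act in the age pathway, 1 passed. OsSPL13 (LOC_Os07g32170), as 1 of 19 tested SBP-box factors, a family often repressed by miR156, rose, with 231, 235 and 242 CPM on day 0 and 401, 441 and 414 CPM on day 8 (0.83 ± 0.17, edgeR adjusted p = 0.0128). Its libraries were tight within each day, yet the call was lost without day 0 replicate 1 or day 8 replicate 3 (adjusted p = 0.0502 to 0.0709). OsSPL14 (LOC_Os08g39890), which shapes tillering and panicle branching, was at 285, 269 and 353 CPM and 303, 469 and 325 CPM, with day 8 replicate 2 alone well above day 0 (0.28 ± 0.18, edgeR adjusted p = 0.46). The list ran from -1.31 to 0.83 with a median of -0.078, and 14 of its 19 members had a negative value. In 6 of them every day 8 library lay below every day 0 library, beside 12.6% of all genes tested. At an unadjusted p under 0.05 there were 7 of the 19, and DESeq2 called 1 higher and 1 lower. The share of all genes tested at that unadjusted p is not given here.

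AP2-like factors, which miR172 represses and which hold the apex in earlier stages, moved in both directions, with 2 of 4 higher and 1 lower. SHAT1 (LOC_Os04g55560), known from seed shattering, fell from 226, 189 and 229 CPM to 92.4, 66.4 and 96.2 CPM (-1.34 ± 0.12, edgeR adjusted p = 1.77e-06). The groups are far apart, and the call held without any 1 library. OsIDS1 (LOC_Os03g60430), a spikelet meristem gene, was at 16, 14.7 and 17.5 CPM and 20.5, 22.7 and 24 CPM (0.48 ± 0.11, edgeR adjusted p = 0.0284), and RSR1 (LOC_Os05g03040), known from starch synthesis, at 9.24, 10.7 and 9.38 CPM and 15.9, 12.25 and 21.7 CPM (0.76 ± 0.20, edgeR adjusted p = 0.0439). These rises were less stable. That of OsIDS1 was lost without day 0 replicate 1 or 2 or day 8 replicate 2 or 3 (adjusted p = 0.0578 to 0.151), and that of RSR1 without day 0 replicate 1, 2 or 3 or day 8 replicate 1 or 3 (adjusted p = 0.0652 to 0.302). SNB (LOC_Os07g13170), which acts with OsIDS1, was higher in every day 8 library without passing (0.28 ± 0.11).

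Genes that build the branched panicle had not passed by day 8. Of 13 panicle branching genes 12 were tested and 0 passed by edgeR (4 at an unadjusted p under 0.05, and 1 by DESeq2, lower), with a median of 0.085. RFL (LOC_Os04g51000), the rice LEAFY relative, was at 42, 47.9 and 41.5 CPM on day 0 and 54.9, 47.5 and 37.9 CPM on day 8 (0.091 ± 0.26, edgeR adjusted p = 0.891). APO1 (LOC_Os06g45460), an F-box gene that prolongs branching, was at 1.26, 1.72 and 1.09 CPM and 1.78, 1.3 and 1.26 CPM (0.08 ± 0.37, edgeR adjusted p = 0.934). Both overlap between the days. NL1 (0.81 ± 0.27), which limits bract growth, and LOG (0.45 ± 0.17), which activates cytokinin, had day 8 above day 0 in every library, and LAX1 (-1.06 ± 0.30), needed to start axillary meristems, and TAW1 (-0.26 ± 0.12), which delays spikelet formation, had day 8 below, none of them passing. These are 2 of 12 in each direction, beside 12.5% above and 12.6% below over all genes tested.

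The MADS-box genes related to SVP and SOC1, which time the transition, gave 0 calls among 5 tested by edgeR (2 at an unadjusted p under 0.05, and 0 by DESeq2). OsMADS50 (LOC_Os03g03070), a SOC1-like activator, was at 73.6, 75.5 and 77 CPM on day 0 and 68.1, 55.2 and 64.7 CPM on day 8, lower in every library but short of the threshold (-0.27 ± 0.10, edgeR adjusted p = 0.196). OsMADS56 (LOC_Os10g39130), of the same branch and a repressor in long days, was at 19.3, 23.3 and 23.7 CPM and 22.8, 42.4 and 34.3 CPM (0.60 ± 0.23, edgeR adjusted p = 0.198). Its groups overlap through day 8 replicate 1.

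Of 14 floral organ identity genes 9 were too low to be tested, among them OsMADS1, OsMADS3, OsMADS7, OsMADS8 and OsMADS13. OsMADS32 (LOC_Os01g52680), a cereal MADS-box gene of flower patterning, was the 1 of 5 tested that passed, with 50.8, 48.3 and 65.1 CPM on day 0 and 101, 109 and 112 CPM on day 8 (0.97 ± 0.18, edgeR adjusted p = 0.00372). The groups are well apart, and the call held without any 1 library. The B-class genes OsMADS2 (0.081 ± 0.12) and OsMADS16 (0.37 ± 0.24), which specify lodicules and stamens, and DL (-0.34 ± 0.22), of carpel and midrib, did not pass. The 5 tested members ran from -1.19 to 0.97 with a median of 0.081, and the member at -1.19 did not pass either. In 1 of the 5 every day 8 library lay below every day 0 library, beside 12.6% of all genes tested. At an unadjusted p under 0.05 there were 2, and DESeq2 called 1, higher.

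Most homeobox genes that keep the meristem indeterminate did not pass. OSH1 (LOC_Os03g51690), the main KNOX homeobox gene of the rice meristem, was at 174, 132 and 151 CPM on day 0 and 167, 121 and 123 CPM on day 8 (-0.16 ± 0.14, edgeR adjusted p = 0.592), and OSH15 (LOC_Os07g03770), of stem and meristem, at 121, 103 and 113 CPM and 112, 84.4 and 93.8 CPM (-0.22 ± 0.11, edgeR adjusted p = 0.346). Both overlap between the days. OSH71 (LOC_Os05g03884) fell as 1 of 8 KNOX and BELL genes tested, from 93, 64.1 and 84.6 CPM to 61.6, 54.4 and 52.3 CPM (-0.52 ± 0.13, edgeR adjusted p = 0.0313). That call was lost without day 0 replicate 1 or 3 or day 8 replicate 2 or 3 (adjusted p = 0.0704 to 0.222).

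The CLAVATA and WOX genes, which balance stem cells in the meristem, gave 0 of 4 tested by edgeR (0 at an unadjusted p under 0.05, and 0 by DESeq2). FON1 (-0.15 ± 0.19) and FON2 (-0.83 ± 0.62), a receptor and its ligand that limit meristem size, were among them. The HD-ZIP III genes, which set the upper side of leaves and vascular tissue, had values from -0.015 to 0.14 in 5 tested (0 passed by edgeR, 0 at an unadjusted p under 0.05, and 0 by DESeq2). Of 5 epidermal HD-ZIP IV genes 0 passed by edgeR (1 at an unadjusted p under 0.05, and 0 by DESeq2).

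In lateral organs, all 6 YABBY genes had a positive value (median 0.26) and 1 rose. OsYAB5 (LOC_Os04g45330), also called TOB1 and needed for spikelet meristems, was at 86.7, 124 and 99.9 CPM on day 0 and 112, 175 and 156 CPM on day 8. Its groups overlap through day 8 replicate 1 (0.52 ± 0.14, edgeR adjusted p = 0.0481), and the call was lost without day 0 replicate 1 or 3 or day 8 replicate 2 or 3 (adjusted p = 0.14 to 0.249). Of 10 growth-regulating factor genes, which promote cell proliferation and are repressed by miR396, OsGRF7 (LOC_Os12g29980) rose from 142, 207 and 176 CPM to 235, 287 and 257 CPM (0.57 ± 0.12, edgeR adjusted p = 0.0101). That call was lost without day 0 replicate 1 (adjusted p = 0.0784).

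Hormone genes gave few calls. Among 15 tested gibberellin genes, GA2ox6 (LOC_Os04g44150), whose enzyme inactivates gibberellin, was the 1 that rose, from 14.5, 14.6 and 8.01 CPM to 20.4, 26.9 and 21.3 CPM (0.89 ± 0.22, edgeR adjusted p = 0.0338). All day 8 libraries were above day 0, but the call was lost without day 0 replicate 1 or 3 or day 8 replicate 1, 2 or 3 (adjusted p = 0.0539 to 0.157). The synthesis genes KS1 (0.36 ± 0.11), GA20ox1 (0.39 ± 0.17) and GA20ox2 (-0.61 ± 0.25), the last known as the semidwarf gene SD1, and the repressor SLR1 (-0.39 ± 0.14) did not pass. The list ran from -1.04 to 0.89 with a median of -0.087, and 9 of the 15 had a negative value. The member at -1.04 did not pass. Every day 8 library lay above every day 0 library in 2 and below in 4, beside 12.5% and 12.6% of all genes tested. At an unadjusted p under 0.05 there were 6, and DESeq2 called 2, both higher.

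In the brassinosteroid and strigolactone lists 1 gene each fell. D11 (LOC_Os04g39430), a cytochrome P450 of brassinosteroid synthesis, fell from 48.3, 34.5 and 44 CPM to 34.9, 20.6 and 27 CPM (-0.63 ± 0.14, edgeR adjusted p = 0.0161), as 1 of 7 tested. D17 (LOC_Os04g46470), a carotenoid cleavage enzyme of strigolactone synthesis, fell from 18.9, 15.6 and 16.89 CPM to 8.4, 7.87 and 9.85 CPM (-0.98 ± 0.23, edgeR adjusted p = 0.0259), as 1 of 5 tested. D11 overlaps between the days through day 8 replicate 1 and D17 does not. The D11 call was lost without day 0 replicate 1 or 3 or day 8 replicate 2 or 3 (adjusted p = 0.0619 to 0.131), and the D17 call without day 0 replicate 1 or 3 or day 8 replicate 1, 2 or 3 (adjusted p = 0.0692 to 0.127).

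For cytokinin, 0 of 14 tested genes passed by edgeR (0 at an unadjusted p under 0.05, and 0 by DESeq2), with a median of -0.18. For auxin, 0 of 7 passed by edgeR (2 at an unadjusted p under 0.05, and 0 by DESeq2). The efflux carrier genes PIN1c (0.33 ± 0.15) and PIN1d (0.46 ± 0.19), close paralogs between which reads may be split, were higher in every day 8 library without passing. In 2 other members of the 7 every day 8 library lay below every day 0 library. Over all genes tested, 12.5% had day 8 above and 12.6% day 8 below in this way. The auxin list ran from -0.53 to 0.46 with a median of 0.14.

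Cell division genes gave no call against day 0 and rose against day 4. By edgeR 0 of 12 passed against day 0 (1 at an unadjusted p under 0.05, and 1 by DESeq2, higher), with values from -0.11 to 0.25. PCNA, the replication clamp, was at 231, 336 and 242 CPM on day 0 and 328, 289 and 289.8 CPM on day 8, and MCM4, of the replicative helicase, at 100.4, 128 and 101 CPM and 111, 101 and 93.1 CPM. Against day 4, in contrast, all 12 passed and were higher on day 8, by 0.44 to 0.94 on the log2 scale with a median of 0.68. In that comparison 12% of all genes tested passed (6.76% higher, 5.25% lower), and the count for the list was 6 when only the 6 libraries of days 4 and 8 entered the fit and 10 to 12 in the other fits tried.

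Of 6 primary wall cellulose synthase genes 0 passed by edgeR (3 at an unadjusted p under 0.05, and 1 by DESeq2, lower), and all 6 values were negative, with CESA6 at -0.58 ± 0.17 and CESA5 at -0.43 ± 0.15 furthest from 0. Polycomb genes, which silence flowering and homeotic genes, gave 0 of 7 by edgeR (1 at an unadjusted p under 0.05, and 1 by DESeq2, higher). The gene with the largest positive value was FIE2 (0.26 ± 0.079), but 5 of the 7 Polycomb genes had a negative value. Their lowest value was -0.17 and their median -0.14. Sugar transport genes gave 0 of 5 and secondary wall genes 0 of 3 (0 at an unadjusted p under 0.05 and 0 by DESeq2 in both).

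Of the 6 tested green leaf genes 2 rose, 4 did not pass and 1 of these had a negative value. CAB1R (LOC_Os09g17740) and CAB2R (LOC_Os01g41710), which encode chlorophyll-binding proteins of the light-harvesting complex, were those that rose, and the median over the list was 1.20. In the fit without the libraries of the lower share 1 gene of the list passed. CAB1R went from 13.9, 13.9 and 8.97 CPM to 46.5, 44.9 and 55.6 CPM (2.00 ± 0.28, edgeR adjusted p = 0.000348) and CAB2R from 4.91, 4.49 and 4.01 CPM to 21.3, 13.2 and 26.2 CPM (2.17 ± 0.52, edgeR adjusted p = 0.0307). The groups are apart for both, and the CAB2R call was lost without day 0 replicate 1, 2 or 3 or day 8 replicate 1 or 3 (adjusted p = 0.0807 to 0.145). LHCB-b (LOC_Os03g39610) was higher in every day 8 library, at 49.9, 31.8 and 52.3 CPM against 16.6, 16.4 and 21.3 CPM, without passing (1.30 ± 0.36, edgeR adjusted p = 0.0606). The 3 tested loci for the small subunit of Rubisco did not pass, and PSBS, of photoprotection, was too low to be tested. Genes of both families are close copies, so their values are uncertain.

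Among signs of handling, JAZ8 (LOC_Os09g26780), a repressor of jasmonate responses that wounding induces, fell from 46.8, 28.9 and 52.4 CPM to 15.1, 19.1 and 15.8 CPM (-1.35 ± 0.34, edgeR adjusted p = 0.038), as 1 of 8 tested. The call was lost without day 0 replicate 1 or 3 or day 8 replicate 1, 2 or 3 (adjusted p = 0.0541 to 0.158). The chaperone gene HSP101 was at 11.3, 12.6 and 8.29 CPM on day 0 and 26.1, 13.5 and 23.6 CPM on day 8, higher in every library without passing (0.96 ± 0.30, edgeR adjusted p = 0.1). Of the 8 tested, 6 had a positive value and 2 a negative one. The list ran from -1.35 to 1.17 with a median of 0.17, and 4 had an unadjusted p under 0.05.

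**Figure D3:**
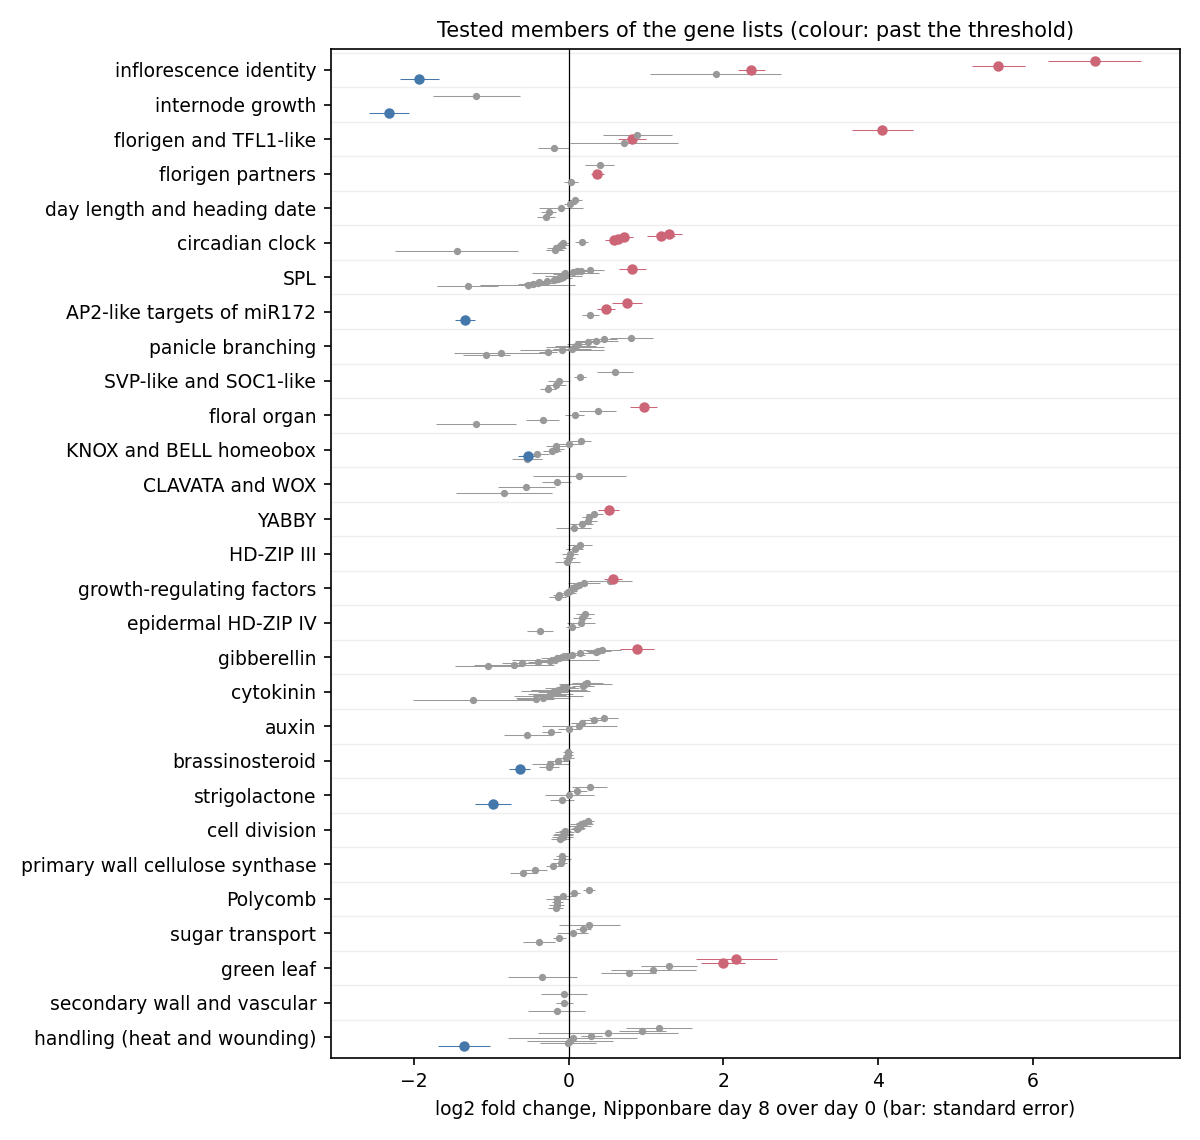
Log2 fold change, day 8 over day 0 (x axis), of each tested member of the 29 gene lists (rows), with its SE as a bar. Coloured points passed the edgeR test: most lists hold 1 or none, the inflorescence identity list holds 4 and the circadian clock list 5.

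Outside the lists, the loci with the smallest p-values have no name in the reference used, and 2 in each direction are given. LOC_Os02g50330 was at 43.3, 38.1 and 40.7 CPM on day 0 and 85.8, 81.3 and 89.4 CPM on day 8 (1.07 ± 0.08, edgeR adjusted p = 8.64e-08). LOC_Os12g36680 was at 2.6, 3.08 and 1.87 CPM and 9.42, 14 and 11.8 CPM (2.23 ± 0.18, edgeR adjusted p = 1.46e-07). In both the spread within a day was small beside the difference between the days. LOC_Os02g46030 fell from 29.7, 27.2 and 29.4 CPM to 9.25, 6.83 and 7.85 CPM (-1.86 ± 0.19, edgeR adjusted p = 7.1e-06), and LOC_Os06g36680 from 74.1, 52.8 and 64.4 CPM to 21.4, 15.8 and 15.8 CPM (-1.86 ± 0.20, edgeR adjusted p = 8.71e-06). All 4 calls held without any 1 library.

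Day 8 was set beside the other days of NB, which share its day 0 libraries. On day 4 OsMADS14 was at 2.48, 1.87 and 1.66 CPM and on day 12 at 135, 72.8 and 83.3 CPM, so that its day 8 libraries lay between both groups without overlap. OsMADS15 was at 0.248, 0.15 and 0.19 CPM on day 4 and 249.8, 144 and 175 CPM on day 12. Its day 4 libraries were near those of day 0, and its day 8 libraries were far above them. PINE1 was at 83.8, 128 and 87.2 CPM on day 4, SHAT1 at 158, 197 and 197 CPM and OsMADS20 at 8.03, 8.08 and 6.14 CPM. By edgeR all 3 genes were lower on day 8 than on day 4, with changes of -1.87 ± 0.25, -1.12 ± 0.12 and -1.73 ± 0.25 and adjusted p = 0.000152, 3.03e-05 and 0.000285, and all 3 calls held in the 13 fits tried.

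Other genes were higher on day 4 than on day 8. FKF1 was at 14.2, 15.8 and 16 CPM on day 4, above its day 8 libraries, and fell to day 8 with a log2 change of -0.60 ± 0.16 (edgeR adjusted p = 0.017). RFL (-0.98 ± 0.26, edgeR adjusted p = 0.0187), PLA1 (-0.98 ± 0.24, adjusted p = 0.0119) and OsSPL14 (-0.65 ± 0.18, adjusted p = 0.0245) were lower on day 8 than on day 4 too. For RFL and OsSPL14 the libraries of both days overlap. None of these 4 decreases passed with only the libraries of days 4 and 8, in the fit without the libraries of the lower share, or without day 8 replicate 3. FKF1 was also lost without day 8 replicate 2, RFL and PLA1 without day 4 replicate 1, and OsSPL14 without day 4 replicate 1 or day 8 replicate 1, with adjusted p = 0.0548 to 0.186 over all these fits. RCN1, in contrast, was at 6.79, 4.98 and 7.23 CPM on day 4, below its day 0 libraries, and rose to day 8 by 1.50 ± 0.19 (edgeR adjusted p = 8.89e-05), a call that held in all 13 fits tried.

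T65, the other cultivar, gave 111 genes higher and 132 lower on its own day 8 against its own day 0, from libraries that NB does not share. Of the 289 genes that rose in NB, 47 also rose in T65, which is 16.3% of the NB list and 42.3% of the T65 list. Of the 216 that fell in NB, 52 also fell in T65, which is 24.1% and 39.4%. A positive value in T65 was found for 272 of the genes that rose in NB (94.1%, beside 51.7% of all genes tested), and a negative one for 205 of those that fell (94.9%, beside 47.8%). The NB genes that rose had a median of 0.70 in NB and 0.33 in T65, and those that fell -0.82 and -0.44, but the NB values are those that selected these genes.

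A test of the difference between the cultivars' responses called 2 genes of 22839, or 0.00876%, both with the higher value in NB and 0 with the lower (edgeR quasi-likelihood interaction, while 948 had an unadjusted p under 0.05 and DESeq2 called 17 and 5). LOC_Os02g50330 was at 118, 108 and 102 CPM on T65 day 0, above every NB library of days 0 and 8, and at 103, 95.1 and 93.2 CPM on T65 day 8. The difference of its responses was 1.25 ± 0.11 (adjusted p = 5.81e-06). LOC_Os12g36680 was at 3.34, 3.75 and 3.51 CPM and 5.7, 5.16 and 4.71 CPM in T65, and its difference was 1.67 ± 0.25 (adjusted p = 0.0161). This second call was lost without NB day 0 replicate 3, NB day 8 replicate 2 or 3, T65 day 0 replicate 2 or 3, or T65 day 8 replicate 2 or 3 (adjusted p = 0.0528 to 0.0823).

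For the named regulators the difference between cultivars did not pass. OsMADS14 was at 0.656, 0.971 and 0.803 CPM on T65 day 8, below every NB day 8 library, and its response differed by 4.04 ± 0.85 (edgeR adjusted p = 0.176). The same difference was 1.29 ± 0.25 for OsMADS18 (adjusted p = 0.129), -0.83 ± 0.17 for SHAT1 (adjusted p = 0.163) and -1.46 ± 0.34 for PINE1 (adjusted p = 0.365). For other named genes the estimated rise was larger in T65 than in NB, again without passing. FKF1 differed by -0.94 ± 0.23 (edgeR adjusted p = 0.554) and GI by -0.40 ± 0.17 (adjusted p = 0.965). These values do not show that the cultivars responded alike.

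**Figure D4:**
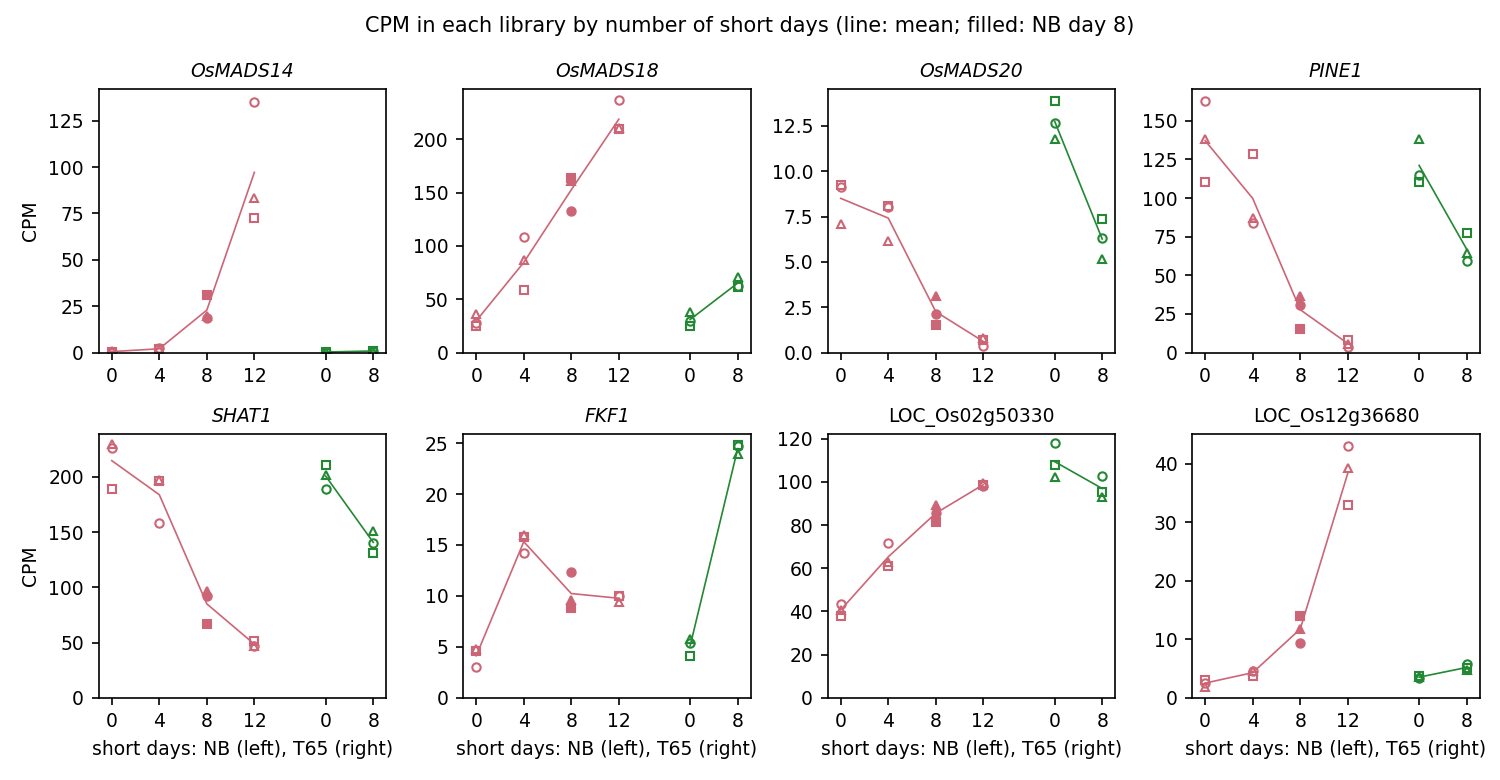
CPM (linear axis from 0) of 8 genes in each library of NB after 0, 4, 8 and 12 short days and of T65 after 0 and 8, with symbol shapes for replicates and lines through the means. In NB OsMADS14, OsMADS18 and LOC_Os12g36680 climb to day 12 and PINE1, SHAT1 and OsMADS20 decline to day 12, FKF1 is highest on day 4 among the NB days, and LOC_Os02g50330 climbs in NB from 38.1 to 43.3 CPM on day 0 while every T65 library lies above the NB day 8 libraries.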

How the data were processed

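Total RNA of dissected apices went into the libraries, and how RNA was selected is not stated in the labels. The authors deposited whole-number read counts per locus, with TopHat2, Bowtie2, HTSeq and edgeR 3.6.4 named in the submitters' processing notes. No source used here gives the genome build, the annotation release or the strand setting, and overlapping genes cannot be told apart. The 30 labelled samples gave 23 libraries, 5 of them merged from several runs. Of the 6 libraries compared, only NB day 8 replicate 1, the shallowest, was merged, from 3 runs. HTSeq's 5 summary lines did not enter any library size. Relative to the gene counts of the 6 libraries compared, reads outside genes were 4.83 to 5.32% and reads over several genes 2.06 to 2.31%.

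The counts of all 8 groups of cultivar and day entered one edgeR 4.0.16 quasi-likelihood model (R 4.3.3, TMM scaling, filterByExpr, 15 residual degrees of freedom, common biological coefficient of variation 12.7%), with Benjamini-Hochberg adjustment over 22839 genes and a threshold of 0.05. The SE is the size of the log2 fold change divided by the square root of F. Labels do not say whether replicates come from separate plants, and p-values measure only how these samples vary, which may be technical. Limits for 0 counts are 3 counts of the library and cover counting error only.

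The alternatives were DESeq2 1.42.0, other size factors, no filter on low counts, a replicate block, fewer libraries and each library left out. The members, the 29 gene lists (243 symbols, 241 with a locus in the files) and the tests were chosen with earlier results of these data known. Named genes are a fixed set of regulators, up to 6 members of each list that passed, smallest p first, and 2 loci in each direction outside the lists. Genes named as not passing beyond that set, and PLA1, PCNA and MCM4, were chosen after their values were seen. Symbols were paired with loci by hand. A RefSeq gene table (ASM3414082v1) held 181 of the symbols, 177 of them on the chromosome that the locus name gives. The symbols RCN1 and OsIDS1 were found only on another chromosome. PINE1, ACE1, FTL1, OsFD1, APO1, FKF1, OsMADS32 and GA2ox6 were among the symbols not found, so their pairing is unchecked. Rough position agreed for 172 symbols and differed for 2, both of the small subunit of Rubisco.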

Additional observations from a re-analysis of the deposited data

Results flagged for a closer look

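The response to 8 short days differed between the cultivars for 2 loci by the interaction test of the edgeR model. For LOC_Os02g50330 the log2 response was 1.25 higher in NB than in T65, from 1.07 in NB and -0.17 in T65, and the call held in 20 of 20 settings (adjusted p at most 0.0481). In T65 this locus was already at 102 to 118 CPM on day 0, while NB was at 38.1 to 43.3 CPM on day 0 and 81.3 to 89.4 CPM on day 8. For LOC_Os12g36680 the log2 response was 1.67 higher in NB, and the call held in 10 of 20 settings (adjusted p from 3.56e-06 to 0.999977), with differences of 1.51 to 1.84.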

How the results depend on the processing

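The count of changed genes against day 0 was 502 with only the 6 libraries, 499 with RLE size factors, 387 with the share of multiply aligned reads as a term, 905 with DESeq2, 1703 without a filter on low counts, 97 in the libraries of the higher share of multiply aligned reads, and 167 to 545 with 1 library left out. The interaction count of 2 was 1 with only the groups compared, 22 with DESeq2, 183 without the filter, 1 where only libraries of that higher share entered and 1 to 3 with 1 library left out. Against day 4, where 2742 genes passed, the count was 118 with only the groups compared, 692 for the higher share alone and 1582 to 3767 with 1 library left out. The cause of these changes was not tested.

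With the replicate block the counts were 673 against day 0, 3062 against day 4 and 1 for the interaction. The labels share only numbers: deviations from the group means of same-numbered NB libraries of days 0 and 8 correlated at 0.18, 0.057 and 0.049, and 2 of 3 day 8 libraries correlated best with their own number.

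Of 31 named genes that passed, 17 kept the call without any 1 library, 15 lost it when only the higher share entered, 4 with the share as a term, 6 with only the 6 libraries (GA2ox6, RSR1, OSH71, OsYAB5, OsGRF7 and D11) and 2 with the replicate block (RSR1 and OsYAB5), and none changed direction in any setting tried. Among genes that did not pass, RFL ranged from -0.035 without NB day 8 replicate 1 to 0.22 without NB day 8 replicate 3. APO1 ranged from -0.079 without NB day 8 replicate 1 to 0.28 without NB day 0 replicate 2, and was -0.043 without NB day 0 replicate 3. Without the filter, OsFD1 and OsMADS56 passed. Depth limits OsMADS15, OsMADS34 and FTL1, whose day 0 libraries together held 7, 6 and 9 counts.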
